A study of Mus musculus with 18 samples.

Results

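The genes described here are 8 regulators of actin and of cellular filaments, Coro1a, Gmfg, Arpc1b, Scin, Vim, Lmna, Cnn3 and Plek2, out of 21967 genes in the count table of a mouse RNA-seq study of early red cell precursors. They were chosen by their measured values, for large differences between the 2 stages or for stage differences that changed with genotype, so those differences are given below as descriptions without a test. The study sequenced 2 sorted bone marrow populations: PreCFU-E, which precede the erythroid colony-forming cells, and CFU-E, the colony-forming cells themselves. Each came from 3 genotypes of mice, with 3 mice per genotype and 1 library per mouse and stage, 18 libraries in all. Scf FL/FL mice carried 2 floxed alleles of Scf, Scf KO/FL mice carried 1 null and 1 floxed allele, and Scf KO/FL;Lepr-Cre mice carried the same alleles as Scf KO/FL plus Cre under control of Lepr. No group was Scf wild type without a floxed allele. Replicates A, B and C were a male, a female and a male in every genotype, and the labels give no ages. The genotypes are written FL/FL, KO/FL and Lepr-Cre from here on.

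Scf encodes stem cell factor, the ligand of the receptor Kit, and in bone marrow Lepr-Cre acts in perivascular stromal cells, which make the factor. The sequenced cells are thus not those in which Cre deletes the floxed allele. The null allele is carried by the KO/FL and Lepr-Cre mice alike, so Lepr-Cre against FL/FL joins the null allele with Cre. Actin filaments are branched by the Arp2/3 complex, taken apart by severing and debranching proteins, and steadied by side-binding proteins such as calponins, while vimentin and the lamins form intermediate filaments of the cytoplasm and of the nuclear lamina. Erythroid precursors lose or rebuild much of this scaffold as they mature towards an enucleate cell. Arpc1b encodes a subunit of the Arp2/3 complex, Coro1a a coronin that binds actin filaments and Arp2/3 and is known mainly from leukocytes, and Gmfg a factor that removes Arp2/3 branches. Scin encodes a gelsolin-family protein that severs and caps filaments in a calcium-dependent manner. Vim and Lmna encode vimentin and lamins A and C. Cnn3 encodes the acidic calponin, and Plek2 a pleckstrin known for a part in actin organisation in erythroblasts.

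The genes lie on 5 chromosomes of GRCm38 (mm10, GENCODE M21 models). Coro1a spans chr7:126699773-126707787, reverse strand. Gmfg spans chr7:28437447-28448233, forward strand. Arpc1b spans chr5:145114215-145130705, forward strand. Scin spans chr12:40059769-40134228, reverse strand. Vim spans chr2:13573927-13582826, forward strand. Lmna spans chr3:88480147-88509956, reverse strand. Cnn3 spans chr3:121426497-121458207, forward strand. Plek2 spans chr12:78888691-78906964, reverse strand. The exons of Coro1a, Arpc1b and Cnn3 overlap exons of Bola2, Pdap1 and the predicted gene Gm42928 on the other strand, and the sources used here do not give the strand setting used for counting, so reads of these pairs may not be fully separated.

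All 8 genes have an entry among RefSeq promoters of GRCm38.p6, and 4 are printed as examples of different patterns over the groups: Scin, highest in PreCFU-E, Gmfg, low in CFU-E, Cnn3, higher in the CFU-E of FL/FL and KO/FL, and Plek2, highest in Lepr-Cre. Each run reads 5′ to 3′ on the strand of the gene, and ends before the first annotated exon. Capitals mark matches, on either strand, to CAGNTG (an E-box), CCNCNCCC (a CACCC-type motif) or GGAAGT (an ETS-type motif), where N is any base. A match at the end of the Cnn3 run continues into bases not shown.
Scin promoter, chr12:40134229-40134478, - strand: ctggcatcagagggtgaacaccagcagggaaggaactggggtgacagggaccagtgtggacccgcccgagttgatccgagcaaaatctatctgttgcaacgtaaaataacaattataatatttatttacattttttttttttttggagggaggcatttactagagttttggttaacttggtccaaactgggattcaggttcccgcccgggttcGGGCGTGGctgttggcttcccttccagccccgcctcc
Gmfg promoter, chr7:28437219-28437446, + strand: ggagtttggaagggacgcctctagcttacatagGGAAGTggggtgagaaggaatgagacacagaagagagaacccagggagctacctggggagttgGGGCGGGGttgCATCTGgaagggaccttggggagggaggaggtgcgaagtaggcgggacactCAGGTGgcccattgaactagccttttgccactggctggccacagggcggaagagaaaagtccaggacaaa
Cnn3 promoter, chr3:121426291-121426496, + strand: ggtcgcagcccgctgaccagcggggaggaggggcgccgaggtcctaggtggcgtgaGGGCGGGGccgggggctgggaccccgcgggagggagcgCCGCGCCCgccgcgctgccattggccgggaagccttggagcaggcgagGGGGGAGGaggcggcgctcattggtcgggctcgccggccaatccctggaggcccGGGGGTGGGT
Plek2 promoter, chr12:78906965-78907188, - strand: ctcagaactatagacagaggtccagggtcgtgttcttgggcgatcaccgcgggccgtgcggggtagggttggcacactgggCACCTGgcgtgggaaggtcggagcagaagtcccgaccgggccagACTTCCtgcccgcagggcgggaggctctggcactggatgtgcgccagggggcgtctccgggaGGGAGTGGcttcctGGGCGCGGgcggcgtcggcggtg

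The 8 genes have 11 promoter entries in all, and the 250 bases of the Vim entry lie wholly in annotated exons. CCNCNCCC was found in 9 of the 11 entries, against 45.9% of 32851 RefSeq promoters over the same 250 upstream bases. CAGNTG, found in 44.8% of all promoters, was in 4 entries, for Gmfg, Coro1a and Plek2, and GGAAGT, found in 19.7%, was in 5, for Vim, Lmna, Gmfg and Plek2. The GATA-type letters AGATAA and TGATAA (9.99% and 7.94% of all promoters), the STAT-type TTCNNNGAA (7.02%), the AP-1-type TGANTCA (6.75%) and the CArG box (1.47%) were in none of the entries for these 8 genes. These letters were searched in this window only.

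The libraries held 3541066 to 9389122 counts, so 3 counts correspond to 0.310 to 0.829 CPM (counts normalised to library size, with TMM factors), and 10782 to 13536 genes had at least 1 count. Replicates differed by more than sampling noise, with chi-square per degree of freedom from 7.75 to 18.9. The 16 erythroid markers summed to 6399 to 6859 CPM in FL/FL PreCFU-E, 6568 to 6910 CPM in KO/FL PreCFU-E and 7545 to 8187 CPM in Lepr-Cre PreCFU-E, and to 9361 to 9779 CPM in the CFU-E libraries, with Zfpm1 listed at 0 in every library. The 10 early progenitor markers, led by Myb and Kit, summed to 2978 to 3294 CPM in FL/FL PreCFU-E, 2516 to 3092 CPM in KO/FL PreCFU-E and 1383 to 1579 CPM in Lepr-Cre PreCFU-E. In CFU-E that sum was 1215 to 1441 CPM in FL/FL, 1040 to 1319 CPM in KO/FL and 615 to 933 CPM in Lepr-Cre, so the Lepr-Cre sum lay below the other genotypes in both stages. Meis1, Hlf and Flt3, all low, were instead higher in Lepr-Cre CFU-E (2.93, 1.18 and 0.41 CPM) than in FL/FL CFU-E (1.39, 0.709 and 0 CPM). Of the 20 neutrophil and monocyte markers, whose sum was 7.4 to 12.5 CPM in PreCFU-E and 1.8 to 5.7 CPM in CFU-E, Elane, Ctsg, Ly6c2, Cebpe and Itgam had no counts in any group, and Spi1 and Cebpa held most of the counts in PreCFU-E. The 10 macrophage markers summed to 1.4 to 7.4 CPM, the 11 mast cell, basophil and eosinophil markers to 0 to 5.0 CPM, and the 11 megakaryocyte markers to 34.2 to 75.6 CPM. The 13 stroma and endothelium markers summed to 37.1 to 61.9 CPM in PreCFU-E and 11.2 to 34.0 CPM in CFU-E. Kitl, the mouse symbol of Scf, had 2 counts over all 18 libraries, so the deletion cannot be checked in these cells. In sorted bulk samples, fewer cells of a type and less RNA per cell cannot be told apart.

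In FL/FL PreCFU-E the 8 genes differed widely in level when set against exon length. In CPM per kilobase of exon, as mean ± SD over 3 mice, Arpc1b was at 15.4 ± 0.156, Lmna at 13.6 ± 0.649, Vim at 13.1 ± 3.19 and Scin at 10.2 ± 1.79. Coro1a followed at 4.54 ± 1.56, Gmfg at 3.75 ± 2.38, Cnn3 at 2.71 ± 0.158 and Plek2 at 0.187 ± 0.323. Of the neighbours in this order, Lmna and Vim, Vim and Scin, Coro1a and Gmfg, and Gmfg and Cnn3 lay within their spread of each other. In FL/FL CFU-E the order on the same scale was Lmna at 53 ± 9.68, Cnn3 at 17.5 ± 3.35 and Arpc1b at 2.54 ± 0.989, with the other 5 genes at 0.296 or below. In Lepr-Cre CFU-E, Plek2 at 8.45 ± 4.71 stood next after Lmna at 55 ± 4.1, above Arpc1b at 5.51 ± 1.52 and Cnn3 at 4.19 ± 0.791, though Plek2, Arpc1b and Cnn3 lay within the spread of Plek2.

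**Figure D1:**
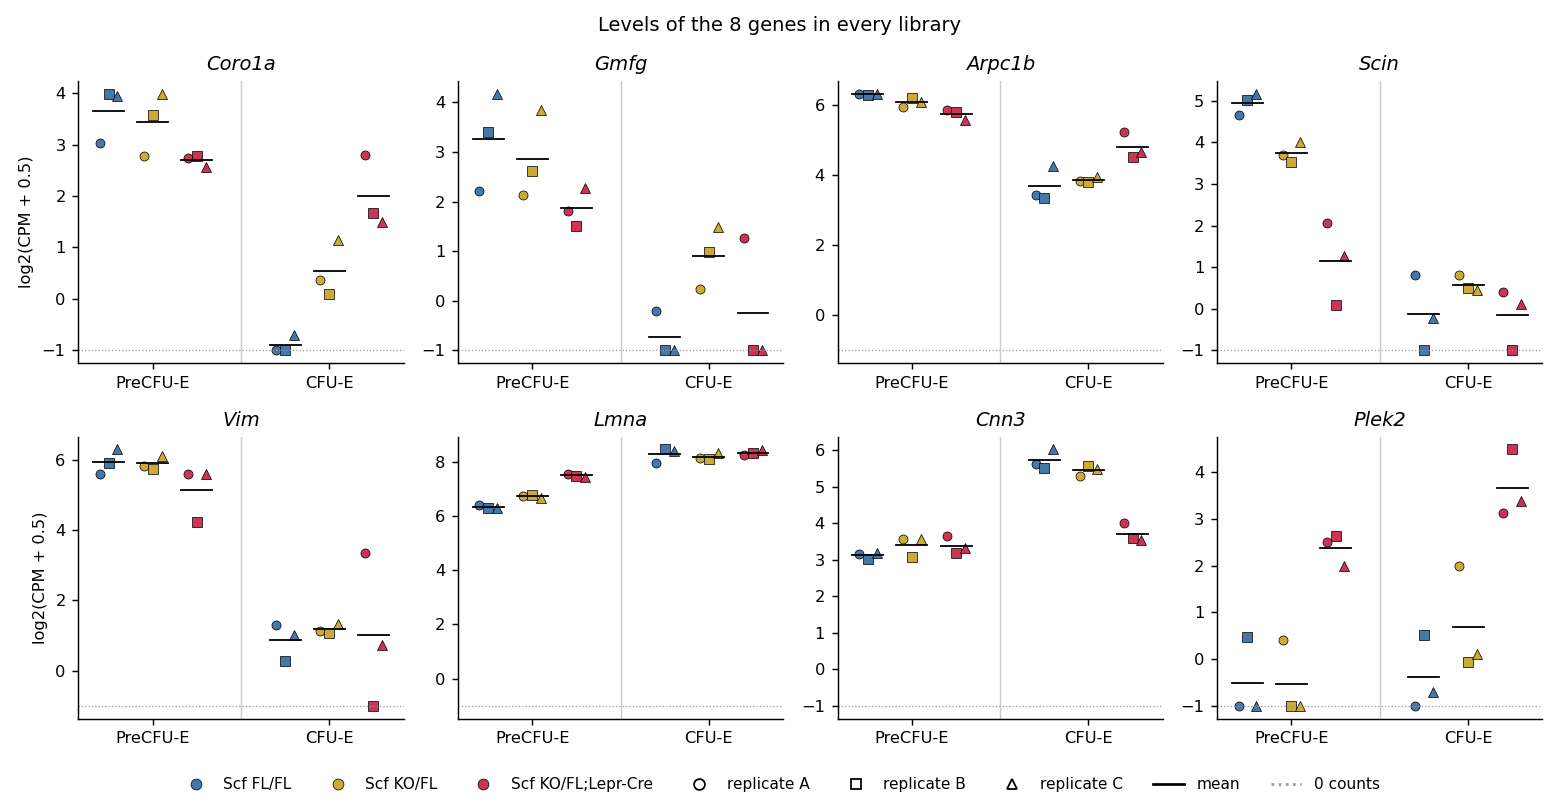
Each panel plots log2(CPM + 0.5) of 1 gene (vertical axis) in the 18 libraries, by stage and genotype (colour), with a symbol per replicate, a bar for the mean of 3 and a dotted line at 0 counts. Coro1a, Gmfg, Arpc1b, Scin and Vim sit lower in FL/FL CFU-E than in FL/FL PreCFU-E, Lmna and Cnn3 sit higher, and Plek2 is above 3 CPM in all 6 Lepr-Cre libraries.

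Coro1a, Gmfg and Arpc1b, which act on the branched actin network, were each higher in FL/FL PreCFU-E than in FL/FL CFU-E. Coro1a had 7.65, 15.4 and 14.9 CPM in FL/FL PreCFU-E (replicates A, B and C, the order used throughout) and 0, 0 and 0.118 CPM in FL/FL CFU-E, where it had 1 count in all. The counts of FL/FL PreCFU-E exceeded it 273-fold (95% exact interval 48.6 to 10812), an interval that covers counting error only. In KO/FL, Coro1a was at 6.36, 11.4 and 15.3 CPM in PreCFU-E and 0.79, 0.565 and 1.72 CPM in CFU-E, a log2 fold change of -3.45 ± 0.58 (SE). In Lepr-Cre it was at 6.16, 6.39 and 5.39 CPM in PreCFU-E and 6.49, 2.7 and 2.34 CPM in CFU-E, and the ranges overlapped. Coro1a thus separated the stages in FL/FL and KO/FL, and its level in CFU-E was ordered Lepr-Cre, KO/FL, FL/FL without overlap between the 3 genotypes.

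Gmfg, the debranching factor, varied widely among replicates. It was at 4.13, 10.1 and 17.5 CPM in FL/FL PreCFU-E and had 2 counts in FL/FL CFU-E, at 0.36, 0 and 0 CPM. The ratio of the 2 groups was 112-fold (95% exact interval 30.7 to 931). KO/FL had 3.87, 5.64 and 14 CPM in PreCFU-E and 0.677, 1.47 and 2.29 CPM in CFU-E, and in both stages replicate C was highest. Lepr-Cre had 3.01, 2.35 and 4.37 CPM in PreCFU-E and 1.89, 0 and 0 CPM in CFU-E, where all 16 counts came from replicate A. The PreCFU-E ranges of FL/FL and KO/FL largely overlapped.

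Arpc1b, the Arp2/3 subunit, had the smallest standard error of the 5 genes that were lower in CFU-E. Its FL/FL PreCFU-E values were 78.8, 78.2 and 79.8 CPM, against 10.4, 9.73 and 18.8 CPM in FL/FL CFU-E, a log2 fold change of -2.59 ± 0.22. KO/FL ran from 61.1, 73.9 and 68 CPM in PreCFU-E to 13.8, 13.4 and 15.1 CPM in CFU-E, a log2 fold change of -2.27 ± 0.22. In Lepr-Cre the values were 57.4, 55.3 and 47.8 CPM in PreCFU-E and 37.1, 22.7 and 24.8 CPM in CFU-E, a log2 fold change of -0.92 ± 0.21. The stages did not overlap in any genotype. Lepr-Cre lay below FL/FL in PreCFU-E and above it in CFU-E, each without overlap.

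Scin, the calcium-dependent severing protein, was found mainly in PreCFU-E, with 10, 25 and 11 counts in FL/FL, KO/FL and Lepr-Cre CFU-E. FL/FL PreCFU-E had 24.9, 31.8 and 35.5 CPM, KO/FL PreCFU-E 12.4, 11 and 15.7 CPM and Lepr-Cre PreCFU-E 3.7, 0.56 and 1.93 CPM. The 3 genotypes did not overlap, and their means were ordered FL/FL, KO/FL, Lepr-Cre from high to low. In CFU-E no library exceeded 1.26 CPM or 11 counts, and Scin had too few counts to enter the model of CFU-E alone. The log2 fold change from PreCFU-E to CFU-E was -5.99 ± 0.72 in FL/FL, -3.68 ± 0.63 in KO/FL and -2.01 ± 0.74 in Lepr-Cre.

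Vim, the cytoplasmic intermediate filament protein, was lower in CFU-E in every genotype. FL/FL had 48.1, 59.7 and 78.1 CPM in PreCFU-E and 1.98, 0.704 and 1.53 CPM in CFU-E, a log2 fold change of -5.50 ± 0.87. KO/FL had 56.7, 53.4 and 68 CPM and 1.69, 1.58 and 2.01 CPM, a log2 fold change of -5.07 ± 0.84. Lepr-Cre had 47.5, 18.3 and 47.8 CPM in PreCFU-E and 9.68, 0 and 1.17 CPM in CFU-E. Replicate B of Lepr-Cre was the lowest Vim library in both stages, with no count in CFU-E, and replicate A of Lepr-Cre was the highest of all CFU-E libraries, so the 3 Lepr-Cre CFU-E libraries span the whole CFU-E range.

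Lmna, the gene of lamins A and C, was higher in CFU-E and ordered by genotype in PreCFU-E. In PreCFU-E it was at 83.8, 77 and 77.6 CPM in FL/FL, 107, 109 and 99.2 CPM in KO/FL and 187, 177 and 172 CPM in Lepr-Cre. These ranges did not overlap. In CFU-E it was at 245, 348 and 335 CPM in FL/FL, 281, 275 and 317 CPM in KO/FL and 301, 315 and 347 CPM in Lepr-Cre, and the genotypes overlapped. The log2 fold change from PreCFU-E to CFU-E was 1.96 ± 0.12 in FL/FL, 1.47 ± 0.12 in KO/FL and 0.84 ± 0.11 in Lepr-Cre.

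Cnn3, the acidic calponin, showed the opposite arrangement: the genotypes were close in PreCFU-E and apart in CFU-E. PreCFU-E had 8.48, 7.69 and 8.56 CPM in FL/FL, 11.3, 7.98 and 11.4 CPM in KO/FL and 12.2, 8.63 and 9.5 CPM in Lepr-Cre. CFU-E had 49.3, 45.5 and 64.7 CPM in FL/FL, 38.9, 46.7 and 44.6 CPM in KO/FL and 15.5, 11.6 and 11.1 CPM in Lepr-Cre. All 3 Lepr-Cre CFU-E libraries lay below the other 6 CFU-E libraries and overlapped the Lepr-Cre PreCFU-E range. The log2 fold change from PreCFU-E to CFU-E was 2.69 ± 0.24 in FL/FL, 2.09 ± 0.24 in KO/FL and 0.34 ± 0.24 in Lepr-Cre.

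Plek2 was near the limit of detection outside Lepr-Cre. FL/FL PreCFU-E had 0, 0.887 and 0 CPM and KO/FL PreCFU-E 0.829, 0 and 0 CPM, 6 and 3 counts in all, each from 1 library. FL/FL CFU-E had 0, 0.938 and 0.118 CPM and KO/FL CFU-E 3.5, 0.452 and 0.573 CPM, and 31 of the 39 counts in KO/FL CFU-E came from replicate A. Lepr-Cre had 5.2, 5.71 and 3.47 CPM in PreCFU-E and 8.27, 21.9 and 9.93 CPM in CFU-E. In both stages every Lepr-Cre library was above every library of the other genotypes. The log2 fold change from PreCFU-E to CFU-E in Lepr-Cre was 1.47 ± 0.92, with replicate B highest in both stages.

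Each mouse gave both libraries, so the stage difference could be taken within the animal, as the difference of log2(CPM + 0.5). For Coro1a it was -4.03, -4.99 and -4.64 in the FL/FL mice, -2.41, -3.49 and -2.83 in the KO/FL mice and 0.07, -1.10 and -1.05 in the Lepr-Cre mice, with no overlap between genotypes. For Scin the FL/FL mice had steps of -3.85, -6.01 and -5.40, the KO/FL mice of -2.89, -3.04 and -3.58 and the Lepr-Cre mice of -1.66, -1.08 and -1.16, again with no overlap. For Arpc1b it was -2.86, -2.94 and -2.05 in FL/FL and -0.62, -1.27 and -0.93 in Lepr-Cre, with KO/FL between -2.42 and -2.11, inside the FL/FL range. For all 3 genes the Lepr-Cre mice were nearest to 0. Scin had few counts in the CFU-E of any genotype, so its steps mostly follow its PreCFU-E levels.

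For Lmna the FL/FL mice had steps of 1.54, 2.17 and 2.11, the KO/FL mice of 1.39, 1.32 and 1.67 and the Lepr-Cre mice of 0.68, 0.83 and 1.01. For Cnn3 the FL/FL mice had steps of 2.47, 2.49 and 2.85, the KO/FL mice of 1.74, 2.47 and 1.92 and the Lepr-Cre mice of 0.33, 0.40 and 0.21, and for both genes the Lepr-Cre mice lay below all 6 others. For Gmfg the FL/FL mice had steps of -2.43, -4.40 and -5.17, the KO/FL mice of -1.89, -1.64 and -2.37 and the Lepr-Cre mice of -0.56, -2.51 and -3.28. For Vim the FL/FL mice had steps of -4.29, -5.64 and -5.28, the KO/FL mice of -4.70, -4.69 and -4.77 and the Lepr-Cre mice of -2.24, -5.23 and -4.85. For Gmfg and Vim the Lepr-Cre mice B and C lay inside the FL/FL range and mouse A stood above all other mice. For Plek2 the step was between 0.00 and 0.30 in FL/FL, where both stages were near 0 counts. It was 1.59, 0.93 and 1.10 in the KO/FL mice and 0.62, 1.85 and 1.39 in the Lepr-Cre mice.

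**Figure D2:**
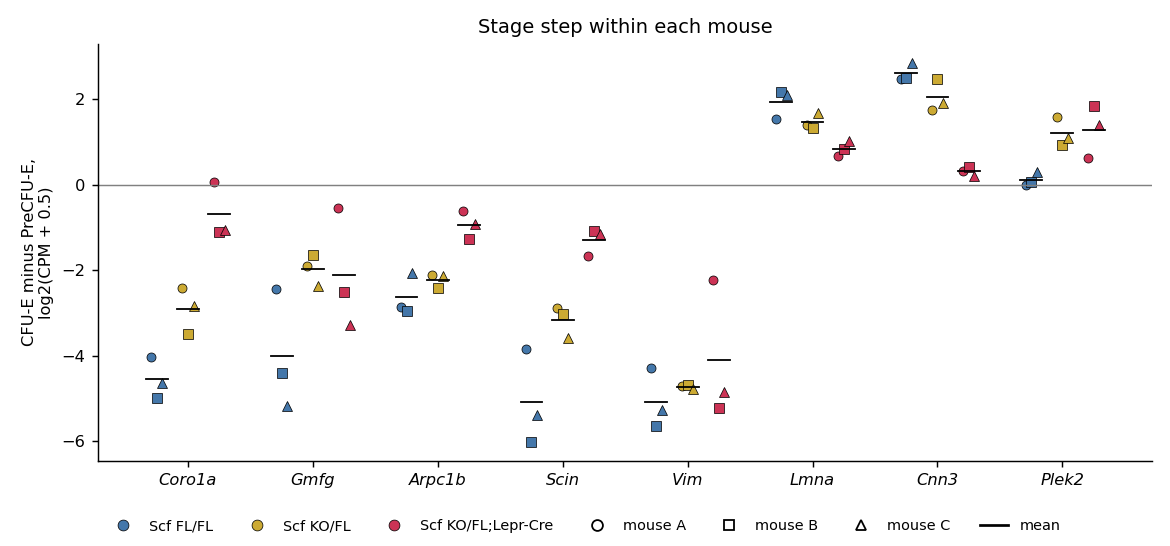
The vertical axis is the difference in log2(CPM + 0.5) between the CFU-E and PreCFU-E libraries of 1 mouse, with a symbol per mouse, colour for genotype and a bar for the mean of 3 mice, for each of the 8 genes. The Lepr-Cre mice are nearest 0 for Coro1a, Arpc1b, Scin, Lmna and Cnn3, while for Gmfg and Vim Lepr-Cre mouse A stands apart.

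Set against FL/FL within each stage, Lepr-Cre was lower in PreCFU-E for the 5 genes that are low in CFU-E, and higher for Lmna and Plek2. The PreCFU-E log2 fold change was -1.07 ± 0.38 for Coro1a, -1.69 ± 0.54 for Gmfg, -0.56 ± 0.14 for Arpc1b, -3.92 ± 0.41 for Scin and -0.71 ± 0.31 for Vim. It was 1.17 ± 0.12 for Lmna, 0.29 ± 0.34 for Cnn3 and 4.07 ± 1.20 for Plek2. The FL/FL and Lepr-Cre ranges did not overlap for 7 of the 8 genes, Gmfg being the exception, and for 25.2% of all tested genes, a share from which nothing is read as the genes were chosen on these values. The sums of the stage markers moved with these values. The early progenitor sum of Lepr-Cre PreCFU-E (1383 to 1579 CPM) was below that of FL/FL PreCFU-E (2978 to 3294 CPM) and near that of FL/FL CFU-E (1215 to 1441 CPM). Myb and Kit, which lead this sum, were at 942 and 436 CPM, against 847 and 413 CPM in FL/FL CFU-E. Less abundant markers stayed further above FL/FL CFU-E: Gata2 (56.7 against 35.7 CPM), Meis1 (10.9 against 1.39 CPM) and Hlf (3.22 against 0.709 CPM). The same held for Angpt1 (20.98 against 12.79 CPM) and Sox4 (24.6 against 16.7 CPM). The erythroid sum of Lepr-Cre PreCFU-E (7545 to 8187 CPM) was above that of FL/FL PreCFU-E (6399 to 6859 CPM). Not every erythroid marker rose: in FL/FL and Lepr-Cre PreCFU-E, Car1 was at 2922 and 2864 CPM and Gfi1b at 179 and 149 CPM. The part of the markers in the values of the 8 genes was not tested. The Plek2 value ranged from 3.42 to 8.14 when each library was left out, and was highest without FL/FL replicate B, which held all 6 FL/FL counts.

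In CFU-E, Arpc1b and Plek2 were higher and Cnn3 lower in Lepr-Cre. The log2 fold change of Lepr-Cre against FL/FL was 1.13 ± 0.29 for Arpc1b, 0.07 ± 0.12 for Lmna, -2.04 ± 0.21 for Cnn3 and 5.08 ± 0.93 for Plek2. The Plek2 value rests on 9 counts in FL/FL CFU-E, 8 of them from replicate B. It ranged from 4.53 to 7.28 when each library was left out. Coro1a had 89 counts in Lepr-Cre CFU-E and 1 in FL/FL CFU-E, a ratio of 91.5-fold (95% exact interval 16 to 3654), and 55 of the 89 came from replicate A. Gmfg had 16 against 2 counts, a ratio of 8.22-fold (95% exact interval 1.93 to 73.7), and without Lepr-Cre replicate A the Lepr-Cre group had no Gmfg count. The Vim log2 fold change was 1.41 ± 1.05, and -1.21 without Lepr-Cre replicate A. Beside these values, the 16 lymphoid markers summed to 16.9, 12.3 and 3.5 CPM in the Lepr-Cre CFU-E replicates A, B and C, against 0.9 to 8.2 CPM in the other 15 libraries. In Lepr-Cre CFU-E 12 of the 16 had counts, Ebf1, Pax5 and Vpreb1 among them, while Cd3e, Cd3d, Cd8a and Klrb1c were at 0. Replicate A also had the highest neutrophil and monocyte sum of the CFU-E libraries, 5.7 CPM. The part of these markers in the values of Coro1a, Gmfg and Vim was not tested. Nor was the part of the early progenitor sum, 615 to 933 CPM in Lepr-Cre CFU-E against 1215 to 1441 CPM in FL/FL CFU-E. The FL/FL and Lepr-Cre ranges did not overlap for 4 of the 7 genes in the CFU-E model (Coro1a, Arpc1b, Cnn3 and Plek2) and for 22.2% of all tested genes.

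**Figure D3:**
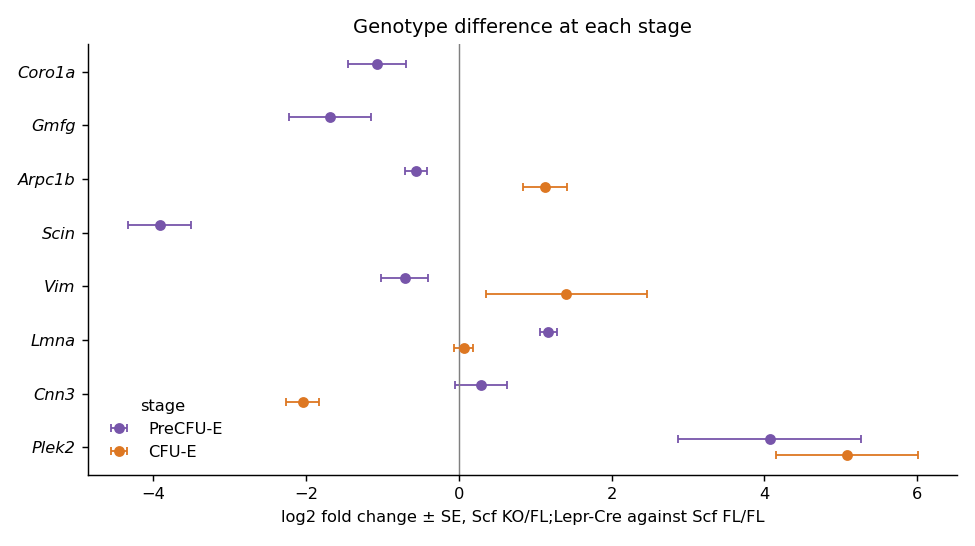
The horizontal axis is the log2 fold change of Lepr-Cre against FL/FL with its SE, in PreCFU-E and in CFU-E, 3 libraries per group, for each of the 8 genes. Arpc1b lies below 0 in PreCFU-E and above 0 in CFU-E, Lmna differs in PreCFU-E, Cnn3 differs in CFU-E, and Plek2 is higher in both. Vim also lies on both sides of 0, but its CFU-E value (1.41 ± 1.05) was -1.21 without Lepr-Cre replicate A. No CFU-E value is drawn for Scin, which had too few counts, or for Coro1a and Gmfg, which had 1 and 2 counts in FL/FL CFU-E. The Plek2 values rest on 6 counts in FL/FL PreCFU-E and 9 in FL/FL CFU-E.

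The fitted difference between the Lepr-Cre and FL/FL stage steps was 1.67 ± 0.30 on the log2 scale for Arpc1b, 3.98 ± 1.10 for Scin, -1.12 ± 0.16 for Lmna and -2.35 ± 0.33 for Cnn3. Scin had only 10 and 11 counts in FL/FL and Lepr-Cre CFU-E, so its value mainly restates the PreCFU-E difference (-3.92 ± 0.41). All 4 values kept their sign when any 1 of the 12 libraries was left out. The values for Gmfg (4.35 ± 1.58) and Vim (2.21 ± 1.16) did not: without Lepr-Cre CFU-E replicate A they were -1.0 and -0.45. The value for Plek2 (1.01 ± 1.71) was -3.10 without FL/FL PreCFU-E replicate B. Against the KO/FL step, the same difference was 1.35 ± 0.30 for Arpc1b, 1.67 ± 1.03 for Scin, -0.62 ± 0.16 for Lmna, -1.75 ± 0.33 for Cnn3 and 0.18 ± 1.38 for Gmfg, all nearer to 0 than against FL/FL. Both comparisons share the Lepr-Cre libraries. The Gmfg value against KO/FL was -5.18 without Lepr-Cre CFU-E replicate A and -0.69 with the mouse as a replicate block.

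The genotype difference averaged over both stages was tested with edgeR's quasi-likelihood test with Benjamini-Hochberg adjustment over 10732 genes. The genes were chosen with earlier results in view, among them the PreCFU-E levels of Scin, so these tests are not independent evidence for them. Against FL/FL, 6.86% of all tested genes were called higher in Lepr-Cre and 6.53% lower. Lmna was higher in Lepr-Cre (0.61 ± 0.08, adjusted p = 3.17e-06), with its difference in PreCFU-E (1.17 ± 0.12) and 0.07 ± 0.12 in CFU-E. Cnn3 was lower (-0.89 ± 0.17, adjusted p = 0.00047), with its difference in CFU-E (-2.04 ± 0.21) and 0.29 ± 0.34 in PreCFU-E. Both averages thus restate a difference of 1 stage, the kind of difference for which the genes were chosen. Coro1a was called higher (2.47 ± 0.54, adjusted p = 0.00208), a value that joins a lower level in PreCFU-E with a CFU-E difference resting on 1 FL/FL count. Plek2 reached the minimum count of the model only through its Lepr-Cre libraries, so its difference, 4.57 ± 0.81 against FL/FL and 3.82 ± 0.81 against KO/FL, is given without a test. As a mouse gave 2 libraries, the test was repeated on 1 mean of log2(CPM + 0.5) per mouse with limma. Lmna (0.62, adjusted p = 0.000154) and Cnn3 (-0.88, adjusted p = 0.00786) passed, and Coro1a did not (0.97, adjusted p = 0.113). Each of the 3 Lepr-Cre mice was above the 3 FL/FL mice for Lmna and below them for Cnn3 and Scin in these means. The Scin difference against FL/FL ranged from -2.62 to -1.32 when each mouse was left out.

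Arpc1b (0.28 ± 0.15, adjusted p = 0.239), Gmfg (0.48 ± 0.73, adjusted p = 0.742) and Vim (0.39 ± 0.58, adjusted p = 0.736) did not pass against FL/FL in edgeR's test. Arpc1b passed without FL/FL mouse C (0.48, adjusted p = 0.0414), and the sign for Gmfg and Vim turned without Lepr-Cre mouse A (-2.17 and -1.03). Against KO/FL, where 2.69% of tested genes were called higher in Lepr-Cre and 2.76% lower, the calls were Lmna (0.45 ± 0.08, adjusted p = 0.000429) and Cnn3 (-0.89 ± 0.17, adjusted p = 0.00104). Here too Lmna differed mainly in PreCFU-E (0.77 ± 0.12, against 0.15 ± 0.12 in CFU-E). Cnn3 differed in CFU-E (-1.75 ± 0.21, against -0.02 ± 0.34 in PreCFU-E). As against FL/FL, these calls largely restate a difference of 1 stage and are not independent evidence. The untested Scin difference against KO/FL ranged from -2.55 to -1.35 when each mouse was left out. Gmfg, at -1.19 ± 0.64, adjusted p = 0.32, passed without Lepr-Cre mouse A (-3.84, adjusted p = 0.0206). That mouse held all 16 Gmfg counts of Lepr-Cre CFU-E, so nothing is read from the value without it.

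Between KO/FL and FL/FL, averaged over stages, none of the 8 genes passed, and 0% of the 10732 tested genes were called by edgeR, with 434 at an unadjusted p under 0.05 and 9 calls by DESeq2. In PreCFU-E alone edgeR likewise called 0% of 10309 genes (350 at an unadjusted p under 0.05, 5 calls by DESeq2) and in CFU-E 0% of 10192 genes (210 and 1). The KO/FL and FL/FL ranges did not overlap for 3 of the 8 genes in PreCFU-E (Arpc1b, Scin and Lmna), against 9.03% of all tested genes, and for 2 of the 7 in the CFU-E model (Coro1a and Gmfg), against 8.14%. The genes were chosen with these values known, so nothing is read from these counts. Between female and male mice, a contrast in which sex and replicate letter cannot be told apart, none of the 8 genes passed (adjusted p from 0.517 to 0.958), against 0.224% of tested genes called higher and 0.112% lower in females by edgeR and 96 calls in all by DESeq2. Without the filter on low counts, edgeR called Vim lower in females (-0.77 ± 0.17, adjusted p = 0.00207). With the filter, edgeR gave Vim -0.78 ± 0.43, adjusted p = 0.624, and adjusted p = 0.966 without Lepr-Cre mouse B.

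The other genes of the same systems were taken from 11 lists by role, 156 genes besides the 8, of which 123 had enough counts in the model of all libraries. In FL/FL, 51 of the 123 were lower and 7 higher in CFU-E at an adjusted p under 0.05, where 9.3% of all tested genes were lower and 8.99% higher. The median log2 fold change was -0.37, against 0.01 for all tested genes. The lists were drawn up with earlier results of these data known, so these counts are a description and not independent evidence. The same holds for the counts by role that follow, which stand beside the same 9.3% and 8.99%. In KO/FL, 32 were lower and 6 higher (7.18% and 6.89% of all genes), and in Lepr-Cre 23 were lower and 2 higher (4.25% and 3% of all genes), with medians of -0.24 and -0.20. All 23 genes lower in Lepr-Cre were among the 51 of FL/FL and among the 32 of KO/FL, and 30 of the 32 were among the 51. A count that is smaller in 1 genotype does not by itself show a smaller change, and the difference of the steps was tested separately, as given further on.

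By role, the 17 measured small GTPases and effectors held 12 genes that fell in FL/FL CFU-E and none that rose. Dock2, an activator of Rac in blood cells, fell (-3.25 ± 0.21, adjusted p = 6.11e-10), as did its partner Elmo1 (-3.18 ± 0.30, adjusted p = 2.83e-09) and the exchange factor Vav1 (-1.53 ± 0.14, adjusted p = 2.83e-09). The kinase gene Pak1 fell as well (-1.92 ± 0.32, adjusted p = 4.38e-05). Of 14 nucleation promoters, which switch on Arp2/3, 6 fell, with Cyfip1 and Nckap1l of the WAVE complex at -1.19 ± 0.17 and -1.04 ± 0.14, Wipf1, which binds WASP, at -1.30 ± 0.20, and Hcls1 at -1.11 ± 0.17. Of 10 formins, which elongate unbranched filaments, 4 fell and 1 rose: Fmnl1 (-4.02 ± 0.41, adjusted p = 8.96e-07), Inf2 (-2.41 ± 0.25, adjusted p = 1.65e-08) and Diaph1 (-0.89 ± 0.11, adjusted p = 4.21e-07) were among those that fell, and Daam1 rose (0.91 ± 0.13, adjusted p = 6.62e-06).

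Of 15 crosslinkers, membrane linkers and pleckstrins, 6 fell and 2 rose. Lcp1, which encodes the actin bundler L-plastin, fell (-2.90 ± 0.41, adjusted p = 6.16e-06), as did zyxin (Zyx, -2.28 ± 0.33, adjusted p = 4.49e-06) and moesin (Msn, -0.86 ± 0.12, adjusted p = 1.8e-06), while vinculin rose (Vcl, 0.70 ± 0.12, adjusted p = 4.78e-05). Of 20 severing, capping and turnover genes 7 fell and none rose, among them Dstn at -0.82 ± 0.14, Wdr1 at -0.62 ± 0.11 and Cap1 at -0.61 ± 0.12. Of 5 actin and monomer-binding genes, the cytoplasmic actin Actg1 (-0.93 ± 0.17, adjusted p = 0.000208) and Tmsb10 (-1.66 ± 0.25, adjusted p = 3.13e-05) fell. Of 6 intermediate filament genes and linkers 4 fell, with the linker Plec at -1.89 ± 0.23. Of 12 genes of the nuclear lamina and envelope 2 rose and 2 fell, with Lbr, the lamin B receptor, at 0.60 ± 0.10. The 11 tropomyosin, calponin and myosin genes held 5 that fell, Tagln2 (-1.08 ± 0.13) and Tpm3 (-0.73 ± 0.11) with the smallest p, and 2 that rose.

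**Figure D4:**
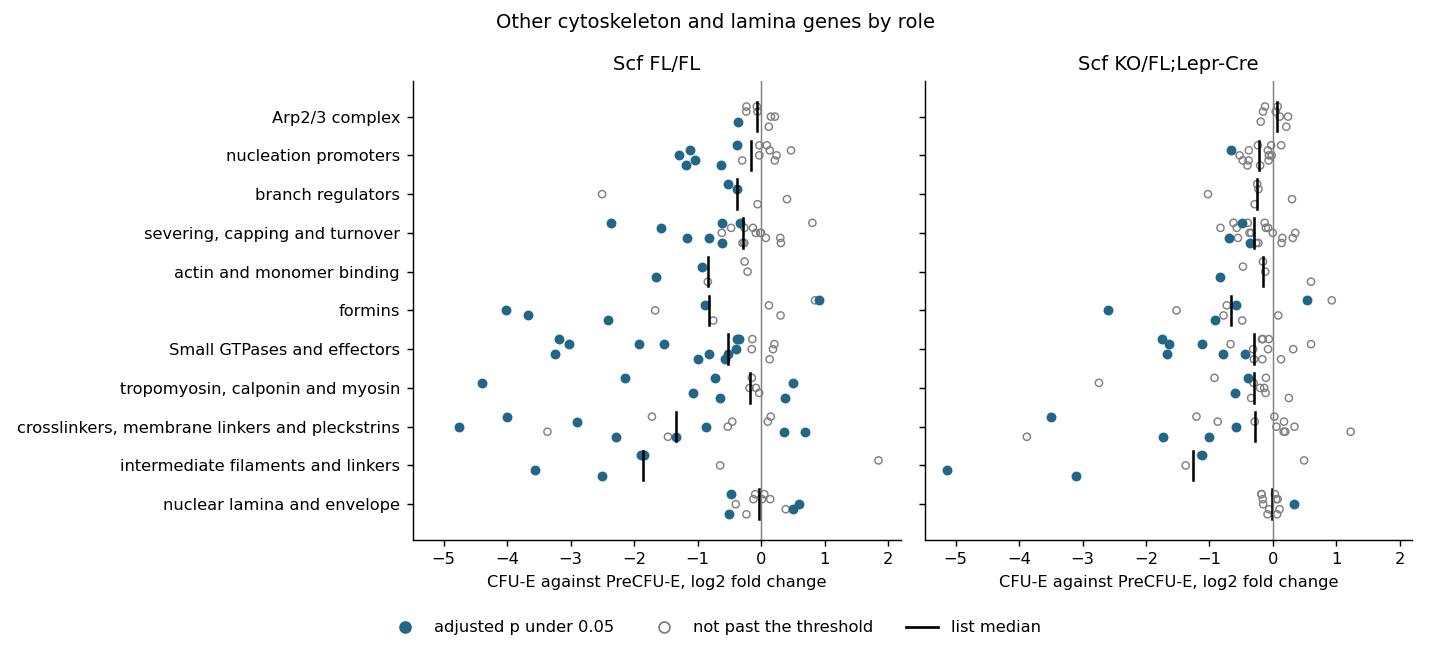
Points are the log2 fold changes of CFU-E against PreCFU-E (horizontal axis) for 123 cytoskeleton and lamina genes other than the 8, by role (rows), in FL/FL on the left and Lepr-Cre on the right, filled where the adjusted p is under 0.05, with a bar at each list's median. In FL/FL the filled points lie mostly below 0, and the Arp2/3 complex and the nuclear lamina have medians near 0.

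The nearest relatives of the 8 genes were examined next. Arpc1a, the other form of the Arp2/3 subunit that Arpc1b encodes, was at 71.1 ± 6.93 CPM in FL/FL PreCFU-E and 82.6 ± 14 CPM in FL/FL CFU-E (SD, n = 3) and did not pass (0.22 ± 0.16, adjusted p = 0.396). Of the 8 other measured Arp2/3 genes, only Arpc2 passed in the FL/FL step (-0.37 ± 0.11, adjusted p = 0.015), and it was lost without FL/FL CFU-E replicate B (adjusted p = 0.102). Averaged over stages, Actr2, which encodes the Arp2 subunit, was higher in Lepr-Cre than in FL/FL (0.24 ± 0.07, adjusted p = 0.0316), a call lost without Lepr-Cre mouse B (adjusted p = 0.178). That test counted the 2 libraries of a mouse as separate. The mean CPM of Arpc1b itself was 6.07-fold higher in FL/FL PreCFU-E than in FL/FL CFU-E. Gmfb, the paralog of Gmfg, was at 139 ± 9.5 CPM and 134 ± 9.35 CPM and did not pass (-0.05 ± 0.11, adjusted p = 0.805).

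Among coronins, Coro1b (-0.53 ± 0.14, adjusted p = 0.00816) and Coro1c (-0.38 ± 0.12, adjusted p = 0.0249) were lower in FL/FL CFU-E, both lost without FL/FL PreCFU-E replicate B (adjusted p = 0.0796 and 0.196). Coro2a, at 2.89 ± 0.511 CPM in FL/FL PreCFU-E and 0.469 ± 0.713 CPM in FL/FL CFU-E, did not pass (-2.51 ± 1.18, adjusted p = 0.147). Coro7 did not pass in the FL/FL step (0.41 ± 0.17, adjusted p = 0.0916). It was lower in Lepr-Cre than in FL/FL over both stages (-0.61 ± 0.12, adjusted p = 0.000748), in a test that counted the 2 libraries of a mouse as separate. Of the gelsolin family, Gsn did not pass in the FL/FL step (0.81 ± 0.37, adjusted p = 0.134), Capg was lower in Lepr-Cre PreCFU-E than in FL/FL (-1.03 ± 0.27, adjusted p = 0.0234, lost without FL/FL replicate C with adjusted p = 0.173), and Vil1 and Avil were near 0 counts. The B-type lamin Lmnb1 did not pass (-0.23 ± 0.10, adjusted p = 0.109) and Lmnb2 fell in FL/FL CFU-E (-0.47 ± 0.15, adjusted p = 0.0254), a call lost without FL/FL PreCFU-E replicate B (adjusted p = 0.14). Cnn2, the calponin paralog, was lower in FL/FL CFU-E (-2.14 ± 0.67, adjusted p = 0.0242, adjusted p = 0.0984 without FL/FL PreCFU-E replicate A), opposite to Cnn3, and Cnn1 had 2 counts in all.

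In PreCFU-E, Plek, the paralog of Plek2, had its lowest level in the genotype where Plek2 was highest. Its mean was 5.65 ± 1.05 CPM in FL/FL PreCFU-E, 1.42 ± 1.32 CPM in KO/FL PreCFU-E and 0.3 ± 0.519 CPM in Lepr-Cre PreCFU-E. In that stage it was lower in Lepr-Cre than in FL/FL (-4.17 ± 1.12, adjusted p = 0.0266), a call lost without Lepr-Cre replicate B (adjusted p = 0.0994). Plek is a platelet and leukocyte gene, and the 11 megakaryocyte markers summed to 62.0 to 75.6 CPM in FL/FL PreCFU-E and 52.3 to 55.3 CPM in Lepr-Cre PreCFU-E. Their part in the level of Plek was not tested.

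In PreCFU-E, 4 of 121 listed genes were higher and 8 lower in Lepr-Cre than in FL/FL, against 2.89% and 3.24% of all 10309 tested genes. Besides Capg and Plek, the lower genes with the smallest p were Fmnl1 (-1.27 ± 0.19, adjusted p = 0.000178) and Dock2 (-0.77 ± 0.12, adjusted p = 0.00019), and tropomyosin 1 (Tpm1, 0.49 ± 0.11, adjusted p = 0.00894) and the myosin gene Myh10 (0.67 ± 0.14, adjusted p = 0.005) were higher. With the replicate letter as a block, 27 listed genes passed instead of 12, and without Lepr-Cre replicate B 6 did. Against KO/FL, Fmnl1 and Dock2 were lower and none was higher (1.16% and 1.02% of all genes). That count was 16 with the replicate block, and it was 1 or 0 without KO/FL replicate A or B or Lepr-Cre replicate B or C.

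In CFU-E, 4 of 115 listed genes were higher and 3 lower in Lepr-Cre than in FL/FL, against 2.08% and 2.75% of all 10192 genes. The formin Inf2 was higher (1.55 ± 0.27, adjusted p = 0.00123), as were Arhgdia (0.41 ± 0.11, adjusted p = 0.0291), Tmsb10 (0.83 ± 0.23, adjusted p = 0.0402) and Tpm3 (0.43 ± 0.12, adjusted p = 0.0428), and Coro7 (-0.64 ± 0.16, adjusted p = 0.0189), Syne1 (-0.56 ± 0.13, adjusted p = 0.0148) and Vcl (-0.43 ± 0.11, adjusted p = 0.0193) were lower. The count of 7 was 2 without FL/FL replicate A or B, 4 without Lepr-Cre replicate A and 11 without FL/FL replicate C. Inf2 passed in every one of these. Against KO/FL, Coro7 alone was lower, with 0.716% of all genes lower and 0.294% higher. With the replicate block 5 passed, and without any KO/FL library or Lepr-Cre replicate B or C none did.

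The stage step itself differed between Lepr-Cre and FL/FL for 2 of the 123 listed genes, Dock2 (1.58 ± 0.28, adjusted p = 0.00956) and Inf2 (1.49 ± 0.33, adjusted p = 0.0343), both less reduced in Lepr-Cre, where 0.14% of all tested genes had a higher and 0.214% a lower step. With the mouse as a replicate block, 11 listed genes passed. Leaving out single libraries gave 1 to 3, Dock2 passing in each. Against the KO/FL step, edgeR called none of the 123 listed genes and 0% of all tested genes (569 at an unadjusted p under 0.05, 23 by DESeq2), with Dock2 at 1.18 ± 0.28, adjusted p = 0.216 and Inf2 at 0.89 ± 0.33, adjusted p = 0.685. Averaged over stages, 10 listed genes were higher and 8 lower in Lepr-Cre than in FL/FL, 8.13% and 6.50% of the 123 against 6.86% and 6.53% of all tested genes. Against KO/FL 3 were higher and 1 lower, 2.44% and 0.813% against 2.69% and 2.76%. These shares are close to or below those of all genes. The stage-averaged calls of listed genes count the 2 libraries of a mouse as separate. The repeat on mouse means is given here only for genes among the 8.

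The genes whose levels over the 18 libraries were most like each of the 8 were found by Pearson correlation of log2(CPM + 0.5) among 8845 genes, a description in which all points share the libraries and their stage and genotype structure. Wipf1 (r = 0.948) and Arpc1b (r = 0.946) were nearest to Coro1a, and Glud1 (r = 0.941) to Gmfg. Sept6, a septin (r = 0.977), and Wdfy4 (r = 0.976) were nearest to Arpc1b. Ikzf2 (r = 0.937), Arhgap26 (r = 0.929) and Csnk1e (r = 0.929) were nearest to Scin. Atp2a3 (r = 0.974), Cbfb (r = 0.968) and Lcp2 (r = 0.964) were nearest to Vim. Btnl10 (r = 0.983), Erp29 (r = 0.981) and Slbp (r = 0.977), which encodes the histone stem-loop binding protein, were nearest to Lmna. Cecr2 (r = 0.969), Tlk1 (r = 0.948) and Trim2 (r = 0.939) were nearest to Cnn3. Nearest to Plek2 were Shmt2 (r = 0.944), Txnrd1 (r = 0.942) and Mthfd2 (r = 0.940). Shmt2 and Mthfd2 encode enzymes of mitochondrial folate metabolism.

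Among the 8 genes themselves, Coro1a and Arpc1b (r = 0.946), Vim and Arpc1b (r = 0.906) and Gmfg and Vim (r = 0.905) were closest, and Scin ran opposite to Lmna (r = -0.957). Within groups, after each group's mean was subtracted, the correlation over 18 libraries was 0.802 for Coro1a and Gmfg, 0.717 for Gmfg and Vim and 0.717 for Scin and Vim, against 0.565 for Coro1a and Arpc1b and -0.456 for Scin and Lmna. Lepr-Cre CFU-E replicates A and B, at both ends of the Vim range in CFU-E, and the depth of the libraries are shared by all these points.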

How the data were processed

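RNA-seq libraries were made from flow-sorted PreCFU-E and CFU-E with a stranded total RNA kit for low input, per the labels. Per the submitters' processing notes, STAR 2.5.2b, HTSeq and mm10 were used by the authors; sources used here leave the strand setting of the counting unstated. Whole counts per gene, not normalized, fill the first deposited table, and the deposited RPKM table holds values scaled to each library's total. The length by which the authors divided the RPKM matched the exon length within 10% for 487 of 15424 genes (gene span: 1245), so levels between genes are given as CPM per kilobase of GENCODE M21 exons, and RPKM served only as an alternative.

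From the counts, TMM-scaled CPM were computed, and differences were fitted with edgeR 4.0.16 (quasi-likelihood test, filterByExpr with minimum count 10, R 4.3.3) over all genes: stage, interaction, stage-averaged genotype and sex in 1 model of 18 libraries, genotype within a stage in the 9 libraries of that stage. Calls have a Benjamini-Hochberg adjusted p under 0.05. The code was tested on simulated data. Alternatives were DESeq2 1.42.0, DESeq2 size factors in edgeR, no filter, limma 3.58.1 on log2(RPKM + 1), 1 mean per mouse, replicate blocks, and leaving out each library or mouse. Intervals on count ratios are exact, at 95%, and cover counting error only. Besides the 8 genes, the text names up to 4 genes per role list with the smallest p in the FL/FL step, up to 3 in each Lepr-Cre against FL/FL comparison within a stage, the nearest relatives, and up to 3 most similar genes among those with a mean of at least 5 CPM. The 8 genes and all lists were chosen with earlier results of these data known. Some named-gene values are not reported here.

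The 2 libraries of a mouse are paired by the mouse's number in the labels, and their deviations from group means correlated at r = 0.111 to 0.197. Same-letter libraries of a stage, which come from different mice, correlated at r = 0.0877 to 0.189. Within a stage, every letter was over 0.1 in all comparisons except Lepr-Cre against FL/FL in CFU-E. The main models held neither letter nor mouse as a block. Blocks were run only as alternatives, the letter block in every comparison of genotypes within a stage, that one included. Each replicate is a separate mouse, per the labels.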

Additional observations from a re-analysis of the deposited data

Results flagged for a closer look

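Among the listed genes besides the 8, the change from PreCFU-E to CFU-E differed between Lepr-Cre and FL/FL for Dock2 and Inf2 by edgeR's test of the interaction, which is what marked them. The difference of the log2 fold changes was 1.58 ± 0.28, adjusted p = 0.00956 for Dock2 and 1.49 ± 0.33, adjusted p = 0.0343 for Inf2. Dock2, the Rac activator, went from 259, 246 and 234 CPM to 30.4, 20.4 and 27.2 CPM in FL/FL and from 169, 136 and 127 CPM to 59.4, 32.7 and 42.4 CPM in Lepr-Cre. Inf2, a formin that also severs filaments, went from 53.1, 71.4 and 41.4 CPM to 7.01, 9.85 and 13.9 CPM in FL/FL and from 64.5, 56.5 and 49.8 CPM to 31.6, 32.1 and 26.6 CPM in Lepr-Cre. For Dock2 Lepr-Cre lay below FL/FL in PreCFU-E and above it in CFU-E, without overlap, and for Inf2 they overlap in PreCFU-E and are apart in CFU-E. Without FL/FL PreCFU-E replicate B the adjusted p for Inf2 was 0.148, and the highest for Dock2 over all 12 libraries left out was 0.0467.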

How the results depend on the processing

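The counts of listed genes called in the FL/FL, KO/FL and Lepr-Cre stage steps stayed within 1.5 times under every alternative run, from 43 to 55, 34 to 38 and 17 to 27 when libraries were left out. Those of the smaller comparisons did not, and the cause was not tested. For Lepr-Cre against FL/FL in PreCFU-E (12 in the main analysis), limma on log2(RPKM + 1) gave 7, the replicate block 27 and leaving out libraries 6 to 10. For Lepr-Cre against KO/FL in PreCFU-E (2), no filter gave 6, DESeq2 5, RPKM 0, the replicate block 16, the model of all 18 libraries 0, and leaving out libraries 0 to 2. For Lepr-Cre against FL/FL in CFU-E (7), no filter gave 12, DESeq2 11, RPKM 1, the replicate block 14 and leaving out libraries 2 to 11. For Lepr-Cre against KO/FL in CFU-E (1), no filter gave 3, DESeq2 2, RPKM 0, the replicate block 5 and leaving out libraries 0 to 1. For the difference of the stage steps (2), no filter gave 7, DESeq2 4, the mouse as replicate block 11 and leaving out libraries 1 to 3. Against the KO/FL step (0), no filter gave 1, DESeq2 1, the mouse as replicate block 2 and leaving out libraries 0 to 1. The block moved no other count of calls by over 1.5 times and changed no stage-averaged call of the 8 genes.

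Of the 8 genes, the stage-averaged Coro1a call against FL/FL was lost on RPKM (0.03) and on mouse means (0.97). Uncalled stage-averaged values that turned were Gmfg against FL/FL (RPKM -0.23, mouse means -0.45, range -2.17 to 1.64 on leaving out mice), Vim against FL/FL (-0.29, -0.32, -1.03 to 0.84), Vim against KO/FL (-0.38, -0.45, -1.19 to 0.68) and Coro1a against KO/FL on RPKM (-0.016). Leaving out libraries moved the Lepr-Cre against FL/FL values in CFU-E between -2.77 and 5.42 for Gmfg and between -1.21 and 1.98 for Vim. The difference of stage steps ranged from -1.0 to 7.08 for Gmfg, -0.45 to 2.76 for Vim and -3.10 to 3.19 for Plek2. Depth limits Coro1a, Gmfg and Scin in CFU-E and Plek2 outside Lepr-Cre, where a library often held 3 counts or fewer.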
